A study of Mus musculus with 4 samples.

Results

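The Hox genes of mice were examined as 38 protein-coding genes in 4 clusters, taken by their symbols Hoxa, Hoxb, Hoxc or Hoxd followed by a number, among 22225 annotated protein-coding genes on assembled chromosomes. KDM5C (also called SMCX), an X-encoded histone demethylase, was mapped by ChIP-Seq, in which DNA recovered with an antibody is sequenced and places enriched over input DNA are listed as peaks. The cells were epiblast-like cells (EpiLCs), derived from male XΔTsixY embryonic stem cells, whose only X chromosome carries a truncated Tsix gene. WT cells had an intact Kdm5c gene, KO cells carried a Kdm5c deletion that removes the exons of the catalytic JmjC domain, and both carried the Tsix truncation. The GEO labels give the strain as C57BL/6J, whereas the study's methods give 129/Sv or a mixed background for the mouse lines. GEO lists 1 immunoprecipitate and 1 input per genotype at day 2, 4 entries in all, with 1 peak list per genotype. The study's reporting form describes replicate cultures for all of these except the KO immunoprecipitate, although it lists only 1 KO input. The WT list was made from replicates together. The GEO labels describe conversion to EpiLCs, whereas the study's methods place day 2 beyond the EpiLC stage. Peak lists hold no expression, so neither the cell type nor the loss of Kdm5c was checked here.

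Hox genes encode homeodomain transcription factors that assign position along the body axis. Within a cluster the genes lie in the order in which they are expressed from head to tail, with low-numbered (anterior) paralogues at one end and high-numbered (posterior) ones at the other. In pluripotent cells the clusters are largely silent and are covered by Polycomb marks, and many of their CpG-rich promoters also carry methylation on lysine 4 of histone H3, the residue that KDM5C demethylates.

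A peak belonged to a promoter when its midpoint lay within 1 kb of any annotated transcription start site (TSS) of the gene. By that measure 14 of 38 Hox genes held a KDM5C peak in WT cells, or 36.8% (exact 95% interval 21.8 to 54.0). The same held for 24.0% of the 22186 other protein-coding genes, a value inside the Hox interval. The bound genes were unevenly spread over the clusters: 7 of 9 in Hoxd, 6 of 10 in Hoxa, 1 of 9 in Hoxc and 0 of 10 in Hoxb. With the 5′ end of each gene as its only TSS the counts were 6 in Hoxd, 2 in Hoxa, 1 in Hoxc and 0 in Hoxb, and with peaks at or above the WT median score they were 1, 3, 0 and 0. All intervals cover counting error only, and neighbouring Hox genes are not independent of each other. With 1 peak list per genotype there was no replicate error and no test.

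Sequence under the peaks is shown for 1 place in each of Hoxa, Hoxc and Hoxd, because CpG content was what these places shared most plainly. All runs are the plus strand of mm9, 300 bases long, in lower case with each CpG in capitals. The Hoxa run, chr6:52167505-52167804, lies just upstream of a Hoxa7 TSS inside the Hoxa7 peak and holds 24 CpG. The Hoxc run, chr15:102751877-102752176, lies in the Hoxc13 peak with its summit and holds 27 CpG. The Hoxd run, chr2:74601159-74601458, opens at the start codon of Hoxd1, next to the summit of the highest Hox peak, and holds 42 CpG. The last run, chr11:96226766-96227065, lies directly upstream of a Hoxb1 TSS, where there was no peak, and holds 7 CpG. It was chosen for contrast after the values were seen. The contrast does not hold throughout, since Hoxa13 and Hoxb9, with 137 and 92 CpG within 500 bp of a TSS, had no peak there either. The Hoxa and Hoxd runs do not hold the peak summit.
Hoxa7 upstream: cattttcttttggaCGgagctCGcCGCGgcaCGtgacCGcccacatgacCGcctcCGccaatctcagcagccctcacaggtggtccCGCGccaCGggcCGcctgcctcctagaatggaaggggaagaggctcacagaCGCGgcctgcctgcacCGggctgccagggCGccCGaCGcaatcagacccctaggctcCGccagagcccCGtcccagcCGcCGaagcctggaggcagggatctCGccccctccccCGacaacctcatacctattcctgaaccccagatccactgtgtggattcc
Hoxc13 coding exon: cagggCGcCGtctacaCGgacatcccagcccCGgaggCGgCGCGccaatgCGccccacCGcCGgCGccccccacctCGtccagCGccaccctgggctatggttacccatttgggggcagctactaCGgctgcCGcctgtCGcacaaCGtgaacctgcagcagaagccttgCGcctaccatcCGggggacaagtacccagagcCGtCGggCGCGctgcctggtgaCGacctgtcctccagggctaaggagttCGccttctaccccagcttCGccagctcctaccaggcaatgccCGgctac
Hoxd1 first coding exon: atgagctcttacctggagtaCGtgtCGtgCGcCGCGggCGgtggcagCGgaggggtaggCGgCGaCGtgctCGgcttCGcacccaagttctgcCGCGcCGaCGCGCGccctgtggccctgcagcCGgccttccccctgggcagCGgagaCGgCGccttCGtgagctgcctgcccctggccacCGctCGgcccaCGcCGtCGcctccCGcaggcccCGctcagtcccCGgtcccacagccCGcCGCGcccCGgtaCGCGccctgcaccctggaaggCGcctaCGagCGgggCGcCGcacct
Hoxb1 upstream, no peak: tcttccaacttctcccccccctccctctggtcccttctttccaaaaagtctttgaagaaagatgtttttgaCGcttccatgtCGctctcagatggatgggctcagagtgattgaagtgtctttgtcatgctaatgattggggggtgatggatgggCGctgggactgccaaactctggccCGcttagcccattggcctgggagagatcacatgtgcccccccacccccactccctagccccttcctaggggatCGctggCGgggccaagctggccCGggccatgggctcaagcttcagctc

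The WT list held 6916 peaks on assembled chromosomes, and 18 of them fell in the Hox clusters, each cluster being the span of its member genes with 5 kb on either side. Over the 525 kb of the clusters this came to 34.3 peaks per Mb, against 2.61 per Mb of assembled chromosome, gaps included. Counted over CpG-rich windows of 500 bp alone, 25 of 141 in the clusters met a WT peak, or 17.7%, against 25.1% in the rest of the genome. Hoxa held 7 peaks in 108.5 kb, or 64.5 per Mb. Hoxd held 7 peaks in 106.8 kb, or 65.5 per Mb. Hoxb held 2 peaks in 183.9 kb, or 10.9 per Mb, and Hoxc 2 peaks in 125.7 kb, or 15.9 per Mb. The Hoxa and Hoxd densities were thus close to each other and several times those of Hoxb and Hoxc.

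**Figure D1:**
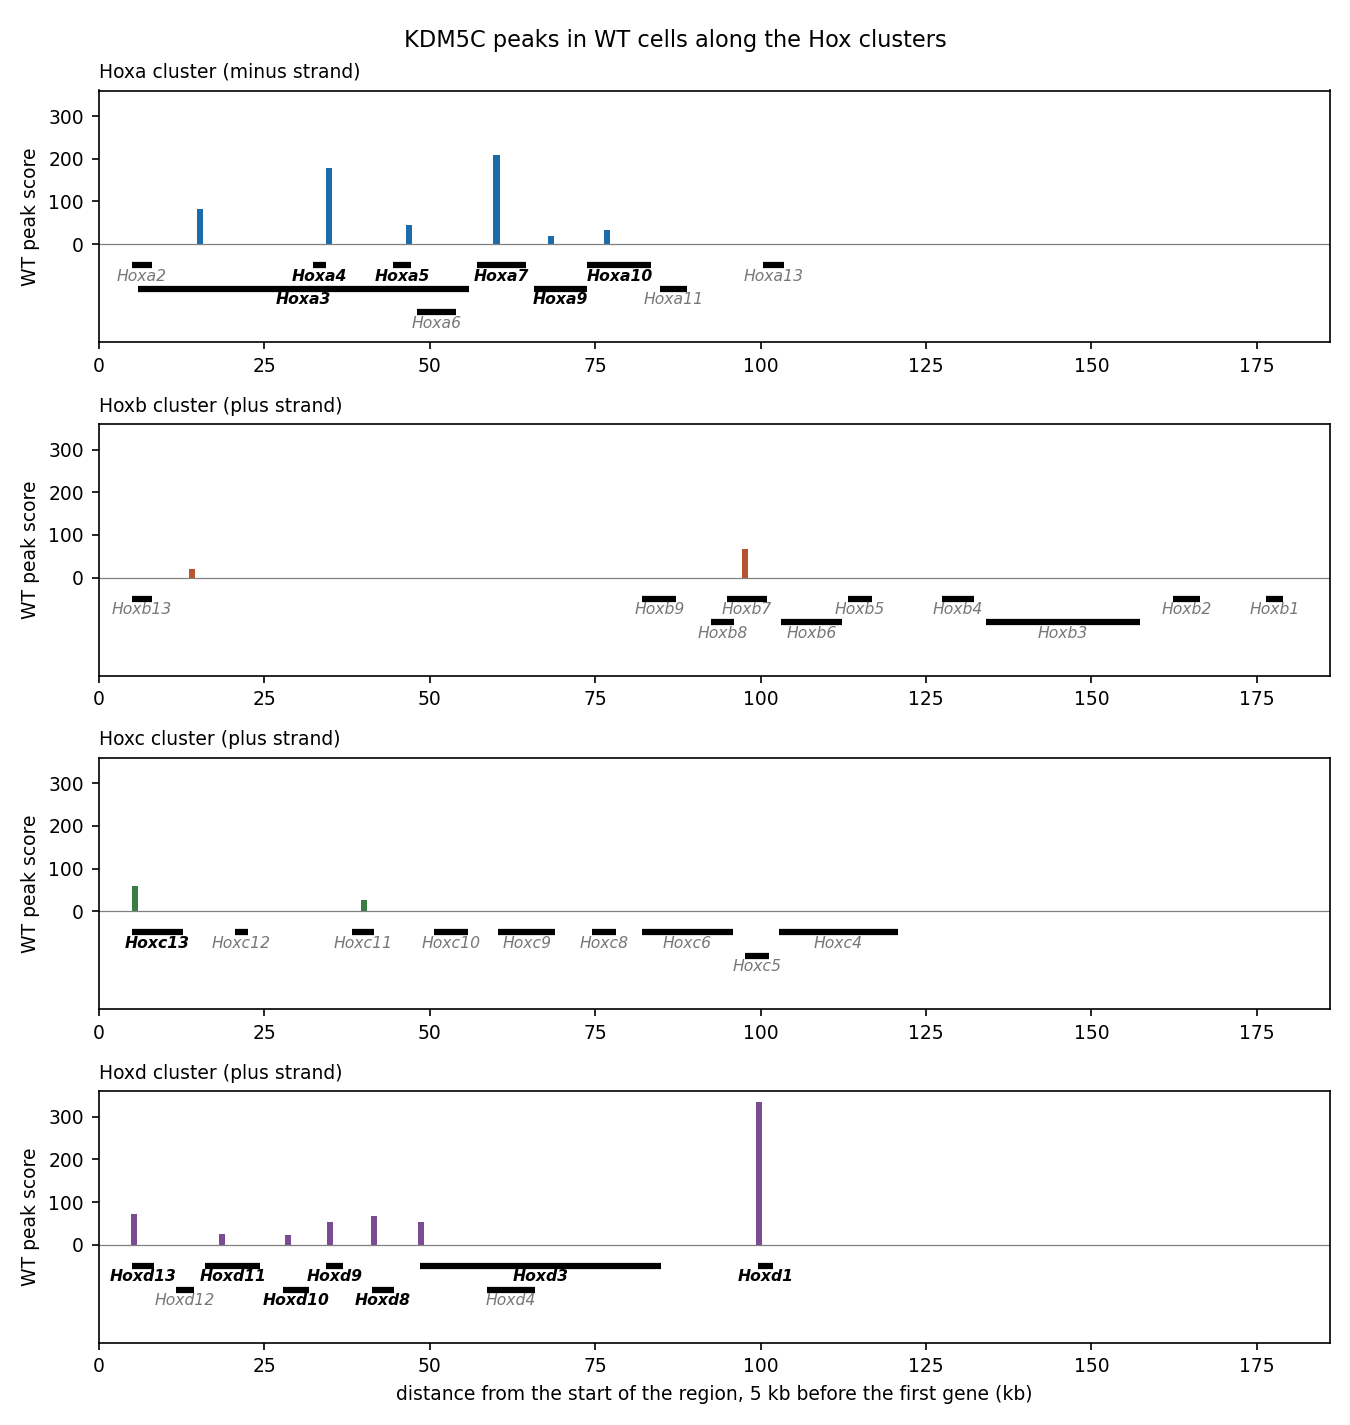
WT peak score (vertical axis, 10 times the −log10 of the q-value) against distance in kb along each cluster, with coloured bars for peaks, black lines for genes and bold names for genes with a peak within 1 kb of a TSS. Of the 18 peaks 17 are drawn: the bars run through Hoxa and Hoxd, where Hoxd1 reaches 334, and stand alone in Hoxb and Hoxc.

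The Hoxd cluster carried a peak at nearly every gene. Hoxd13, a posterior gene required for digits, held a peak at chr2:74506476-74506917 with a score of 71 and 3.81-fold enrichment over input. The score is 10 times the −log10 of the q-value with decimals dropped, so a higher score is a more certain peak. Its summit lay in coding sequence, 374 bp downstream of the TSS. Hoxd11, which acts with Hoxa11 in the forearm, held a weak peak at chr2:74519851-74520256 with a score of 26 and 2.85-fold enrichment, its summit in the 5′ UTR. Hoxd10, which takes part in patterning lumbar motor neurons, held a peak at chr2:74529669-74530200 with a score of 22, higher than only 4.35% of WT peaks. Hoxd10 was the only bound Hox gene without a CpG-rich TSS.

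Nearer the middle of the cluster, Hoxd9 held a peak at chr2:74536027-74536647 with a score of 53, its summit in coding sequence 566 bp downstream of the TSS. Hoxd8 held a peak at chr2:74542754-74543158 with a score of 67 and 4.17-fold enrichment, and its summit was 10 bp from a TSS, the closest of the Hox peaks. Hoxd3, which acts in forming the first neck vertebrae, held a peak at chr2:74549971-74550284 with a score of 54, whose 1 kb also held the TSS of the noncoding 1700109F18Rik on the other strand. These 6 peaks from Hoxd13 to Hoxd3 lay within 43.8 kb. The next 50.6 kb, which holds the start sites of Hoxd4, held no peak.

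Hoxd1, the anterior end of the cluster, held the highest peak of any Hox gene. It lay at chr2:74600864-74601494 with a score of 334, 7.35-fold enrichment and a −log10 q of 33.4. Its summit lay in the 5′ UTR, 66 bp downstream of the TSS and 56 bp before the start codon. The score was above that of 90.5% of WT peaks and 89.1% of peaks at other CpG-rich promoters. Counting the Hoxd1 peak itself, 654 WT peaks scored as high or higher. The TSS of the noncoding 6720416L17Rik lay within 1 kb as well, so the peak cannot be given to 1 of the 2 promoters. The other Hoxd genes, Hoxd12 and Hoxd4, had no peak within 1 kb, their nearest being 6.29 and 9.91 kb away.

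In the Hoxa cluster the higher peaks lay at the anterior and central genes. Hoxa7 held a peak at chr6:52166892-52168035 with a score of 209 and 6.15-fold enrichment, the widest at a Hox gene at 1144 bp. This peak lay at an internal TSS and not at the 5′ end of the annotated gene, as did those of Hoxa3, Hoxa9, Hoxa10 and Hoxd11. Hoxa4 held a peak at chr6:52141950-52142417 with a score of 179 and 5.39-fold enrichment, its summit 392 bp upstream of the TSS, in an intron of a long Hoxa3 transcript. Hoxa3, needed for the thymus and other pharyngeal organs, held a peak at chr6:52122395-52122965 with a score of 82, the median of the WT list, its summit 65 bp downstream of an internal TSS. The TSS of Gm15050 lay within 1 kb of the Hoxa3 peak as well. Hoxa7, Hoxa4, Hoxa3 and Hoxd1 were the 4 Hox genes with a peak at or above the WT median score.

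The remaining Hoxa peaks were lower. Hoxa5, required for lung development, held a peak at chr6:52153947-52154485 with a score of 45 and 3.06-fold enrichment. Hoxa10, which acts in the lumbar spine and the uterus, held a peak at chr6:52184023-52184342 with a score of 33. Hoxa9 held the lowest Hox promoter peak, at chr6:52175553-52175876, with a score of 19 and 2.55-fold enrichment, above only 2.94% of WT peaks. No peak lay in the last 31.5 kb of the region, which holds Hoxa11 and Hoxa13, a gene needed for the distal limb, or within 1 kb of Hoxa2 or Hoxa6. For Hoxa6 the nearest peak, at Hoxa5, was 4.51 kb away.

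The Hoxc cluster held a promoter peak at its posterior end only. Hoxc13, required for hair formation, held it at chr15:102751851-102752176 with a score of 58 and 3.63-fold enrichment, the summit in coding sequence 565 bp downstream of the TSS. The TSS of Gm17649 lay within 1 kb of the same peak. The other Hoxc peak, at chr15:102786412-102786931 with a score of 26, lay in an intron of Hoxc11, 2024 bp downstream of its TSS. It was the only peak in the clusters whose CpG ratio, 0.535, was under the limit for CpG-rich sequence. From there to the end of the region 85.3 kb held no peak, over the 6 genes Hoxc10, Hoxc9, Hoxc8, Hoxc6, Hoxc5 and Hoxc4.

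No Hoxb gene held a peak within 1 kb of an annotated TSS, 0 of 10 genes, which allows a share of up to 30.8%. This count rests on the annotation at Hoxb7. A peak at chr11:96148130-96148574 with a score of 67 and 3.69-fold enrichment had its summit in Hoxb7 coding sequence, 153 bp downstream of the annotated start codon, but its midpoint was 1677 bp from the nearest annotated TSS. With start codons counted beside TSSs, a choice made after seeing the data, Hoxb7 became bound, Hoxb held 1 bound gene and the Hox genes 15 of 38. The other Hoxb peak, at chr11:96064357-96064980 with a score of 20, lay at the TSS of the noncoding Gm11538, 9135 bp downstream of the Hoxb13 TSS. The 86.0 kb from Hoxb6 to Hoxb1, a gene needed for the facial motor neurons of the hindbrain, held no peak over 6 genes.

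Of the Hox genes, 24 had no peak at a TSS. The nearest peak lay 1.68 kb from Hoxb7, 1.81 kb from Hoxc11, 4.31 kb from Hoxb8 and 4.51 kb from Hoxa6, and the farthest 78.7 kb from Hoxb1. Just inside the 1 kb limit lay Hoxd10, at 787 bp, and Hoxd9, at 600 bp. Both were lost with a 500 bp limit, which left 12 Hox genes, and a 5 kb limit added Hoxa6, Hoxb7, Hoxb8 and Hoxc11 for 18.

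Hox genes were then set beside promoters of like base composition, because 17 of the 18 cluster peaks lay on CpG-rich sequence. A gene was CpG-rich when 500 bp on either side of a TSS had a ratio of observed to expected CpG of at least 0.6 and at least 50% GC. Of 24 CpG-rich Hox genes 13 held a peak, or 54.2% (exact 95% interval 32.8 to 74.4), against 43.6% of 10874 other CpG-rich genes, which is inside that interval. Of 14 Hox genes that were not CpG-rich, 1 held a peak, or 7.14% (0.181 to 33.9), against 5.22% of 11312 other genes. At matched CpG class the Hox genes as a whole therefore did not stand apart from other genes beyond counting error.

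Among CpG-rich genes the order of the clusters by share bound was the same. In Hoxd 6 of 6 were bound (54.1 to 100%), in Hoxa 6 of 9 (29.9 to 92.5%), in Hoxc 1 of 5 (0.505 to 71.6%) and in Hoxb 0 of 4 (0 to 60.2%). With so few genes the intervals were wide, those of Hoxd, Hoxc and Hoxb overlapped, and the difference between clusters was not tested. Among all members the intervals were 40.0 to 97.2% for Hoxd, 26.2 to 87.8% for Hoxa, 0.281 to 48.2% for Hoxc and 0 to 30.8% for Hoxb. Those of Hoxd and Hoxb did not overlap, but this depended on the annotation and treats neighbouring genes as independent. With only the 5′ end of each gene as TSS, Hoxd had 6 of 9, whose interval of 29.9 to 92.5% overlaps that of Hoxb. With start codons counted beside TSSs, Hoxb held 1 bound gene. Counted over the sequence instead of over genes, CpG-rich windows of 500 bp met a WT peak in 10 of 29 cases in Hoxd (34.5%) and 11 of 42 in Hoxa (26.2%). In Hoxb this was so for 2 of 38 (5.26%) and in Hoxc for 2 of 32 (6.25%), against 25.1% of 36856 such windows in the rest of the genome.

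**Figure D2:**
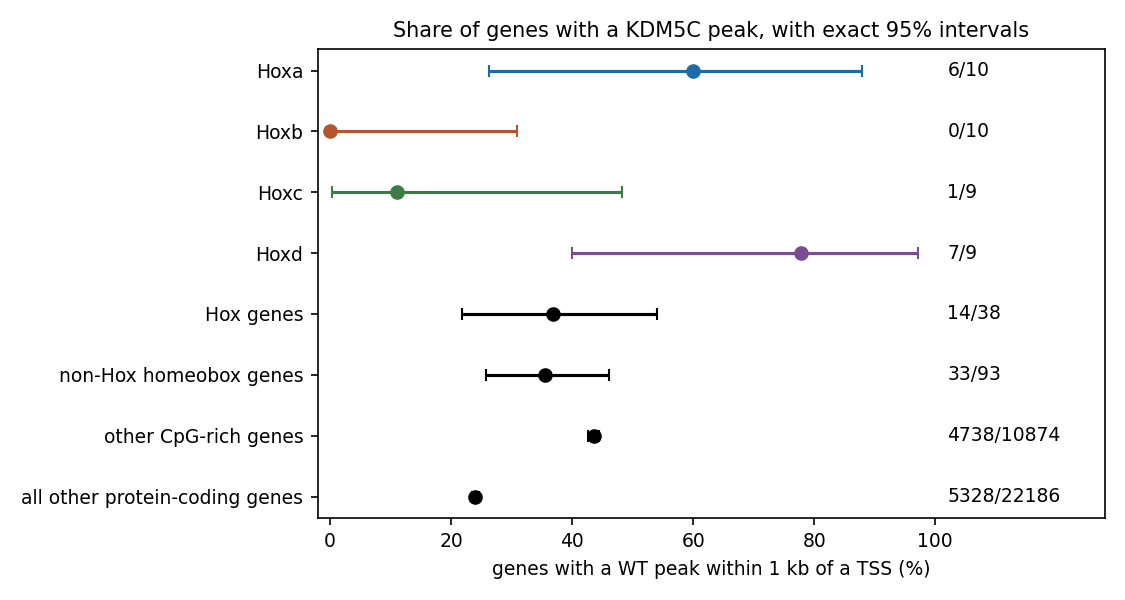
Percent of genes with a WT peak within 1 kb of a TSS (horizontal axis), points for the share, bars for exact 95% intervals and bound over all genes at the right. Hoxd (77.8%) and Hoxa (60.0%) lie above the 24.0% of all other genes and Hoxb (0) below it, while the 38 Hox genes together, at 36.8%, lie beside non-Hox homeobox genes at 35.5%.

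CpG number at the promoter went with the presence of a peak within the Hox genes. The largest number of CpG within 500 bp of a TSS had a median of 74.5 in the 14 bound genes (35 to 147) and of 47 in the 24 unbound ones (17 to 137), so the groups overlapped widely. Among genes outside the Hox clusters, counted only where CpG-rich, the medians were 80 with a peak and 73 without. The Hox medians also take in 14 Hox genes that were not CpG-rich, of which 1 was bound, so they are not matched to these. By cluster the median was 71 in Hoxa, 65 in Hoxd, 52 in Hoxc and 43.5 in Hoxb. Peaks occurred at 7 of 10 Hox genes with 60 to 79 CpG, where 42.9% of other genes held one, and at 1 of 12 with 40 to 59 CpG, where 28.0% did. With 39 CpG or fewer they occurred at 1 of 9 Hox genes, against 2.46% of other genes. With 80 to 99 CpG they occurred at 1 of 2, against 50.7%, and with 100 or more at 4 of 5, against 48.7%.

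A high CpG number did not always come with a peak. Hoxa13 had 137 CpG, the second highest number among the members after the 147 of bound Hoxd8, and its nearest peak was 26.6 kb away. Hoxb9 had 92 CpG and its nearest peak was 15.5 kb away. In all 11 CpG-rich Hox genes held no peak at a TSS, the others being Hoxa6, Hoxa11, Hoxb6, Hoxb7, Hoxb8, Hoxc8, Hoxc9, Hoxc11 and Hoxc12, with 52 to 68 CpG.

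The genes without a peak that were not CpG-rich were mainly Hoxb and Hoxc genes. Hoxb4 had 17 CpG, the fewest of any member, and its nearest peak was 29.6 kb away. Hoxb2, which acts in the hindbrain, had 26 CpG, and its nearest peak was 64.6 kb away. Hoxb3 and Hoxb5 had 42 and 30 CpG and nearest peaks at 36.3 and 15.6 kb. Hoxb1 had 45 CpG and Hoxb13 had 39, the latter with its nearest peak at 9.04 kb. Hoxc4 and Hoxc5 each had 30 CpG and Hoxc6 had 37, with nearest peaks at 62.7, 57.6 and 42.0 kb. Hoxc10 had 49 CpG and a nearest peak at 10.6 kb. In the other clusters Hoxa2 had 31 CpG, Hoxd12 had 41 and Hoxd4 had 42. All 13 of these lay under 66 CpG, the lower quartile of other bound CpG-rich genes, which follows largely from their not being CpG-rich. Bound Hoxa3 (52), Hoxd3 (61), Hoxd9 (65) and Hoxd10 (35) lay under that quartile as well.

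**Figure D3:**
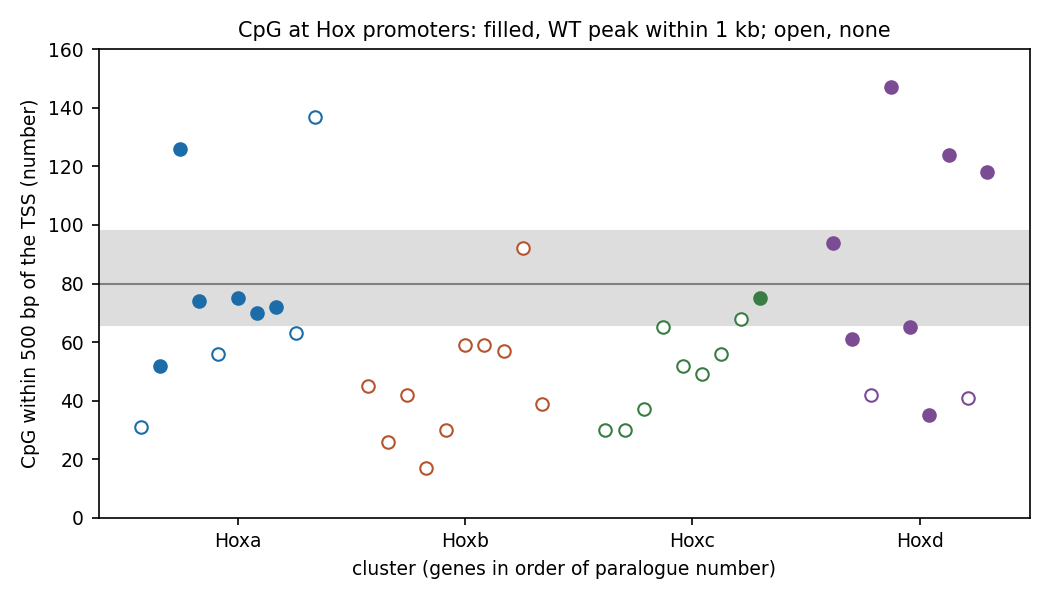
Largest number of CpG within 500 bp of a TSS (vertical axis) for each Hox gene, grouped by cluster in order of paralogue number, filled where a WT peak lay within 1 kb, with the median (line, 80) and quartiles (grey band, 66 to 98) of other bound CpG-rich genes. Open circles make up all of Hoxb and most of Hoxc, nearly all of them below the band, and Hoxa13 at 137 and Hoxb9 at 92 are the open circles highest on the plot.

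Position along the body axis showed no clear order. Peaks lay at 3 of 7 anterior genes (groups 1 to 3, 42.9%, interval 9.90 to 81.6), 4 of 15 central genes (groups 4 to 8, 26.7%, 7.79 to 55.1) and 7 of 16 posterior genes (groups 9 to 13, 43.8%, 19.8 to 70.1). The intervals overlapped. Among paralogue groups both Hoxa3 and Hoxd3, both Hoxa9 and Hoxd9, both Hoxa10 and Hoxd10, and both Hoxc13 and Hoxd13 were bound. In the same groups Hoxb3, Hoxb9, Hoxc9, Hoxc10, Hoxa13 and Hoxb13 were not. Groups 2, 6 and 12 had no bound member. Between clusters the same paralogue could differ, as with Hoxd1 at a score of 334 and Hoxb1 with no peak for 78.7 kb.

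Hox promoter peaks were mostly modest. Their median score was 56 (quartiles 36 and 79.25, n = 14), against 88 (51 and 174) for 4516 peaks at other CpG-rich promoters and 51 (39 and 70) for 37 peaks at non-Hox homeobox genes. At or above the WT median score of 82 were 4 of 14 Hox promoter peaks, or 28.6% (8.39 to 58.1), 53.1% of peaks at other CpG-rich promoters, and 7 of 37 peaks at non-Hox homeobox genes, or 18.9% (7.96 to 35.2). The Hox interval holds both of the other shares. Median fold enrichment was 3.72 at Hox promoters and 3.75 at other CpG-rich promoters, and Hox promoter peaks were 455 bp wide at the median against 549 bp.

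**Figure D4:**
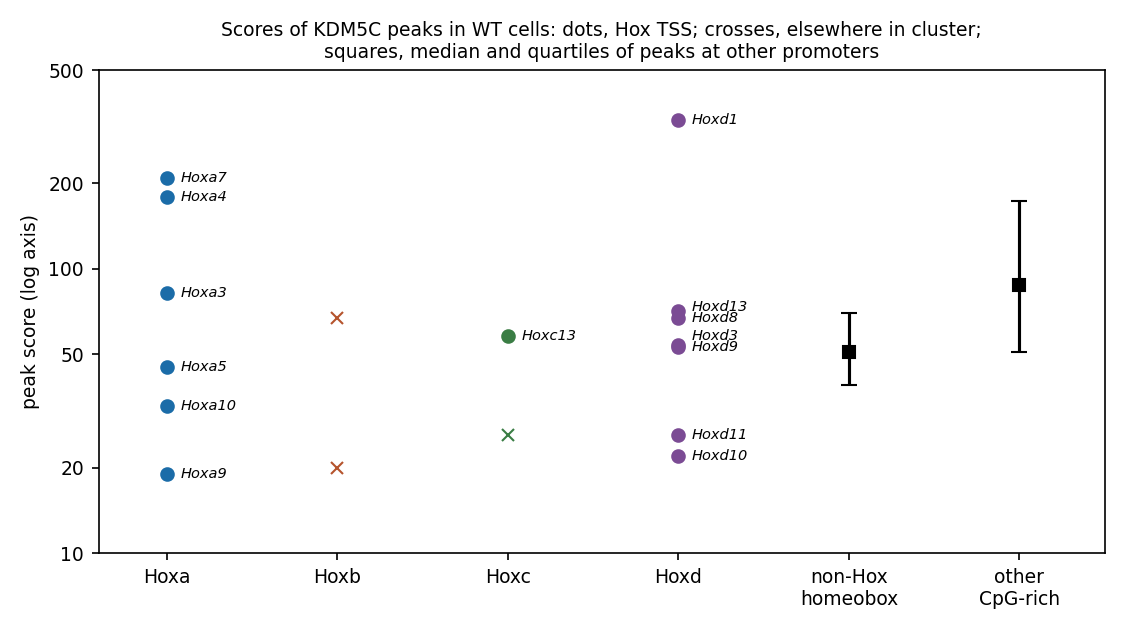
Score of each WT peak (vertical log axis) by Hox cluster, with dots for peaks at a Hox TSS and crosses for other peaks in a cluster, beside the median and quartiles for peaks at non-Hox homeobox (51) and other CpG-rich promoters (88). Hoxd1, Hoxa7 and Hoxa4 lie at or above the upper quartile of the CpG-rich promoters, 174, and 8 of the other dots lie between 33 and 82.

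Summits were placed relative to the nearest TSS and to coding sequence. They lay downstream of the nearest TSS, internal ones included, in 11 of 14 Hox promoter peaks, or 78.6% (49.2 to 95.3). This interval holds the 63.5% of other CpG-rich promoters. The side is therefore not always that of the gene's start. At Hoxa10 the summit counted as upstream of an internal TSS but lay 704 bp downstream of the start codon. The median summit was 258.5 bp downstream of the nearest TSS at Hox genes (quartiles 65.25 and 458), against 68.5 bp at other CpG-rich promoters (−81 and 199) and 142 bp at non-Hox homeobox genes (−71 and 415). Summits were in coding sequence in 9 of 14 Hox promoter peaks, or 64.3% (35.1 to 87.2). This was so for 24.5% of 4516 peaks at other CpG-rich promoters (23.2 to 25.7), which lies below the Hox interval, and for 29.7% of 37 at non-Hox homeobox genes (15.9 to 47.0), whose interval overlaps it. The coding share depends on the annotation. At Hoxa9 the summit counted as coding but lay upstream of the start codon used here. At Hoxa3 and Hoxd13 the nearest TSS is annotated at the start codon itself, with no 5′ UTR between them. How often such cases occurred at the other promoters was not counted, so the shares were not matched for annotation. Of the 14 bound genes 13 had a peak midpoint within 1 kb of a start codon, all but Hoxd3.

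Short motifs were looked for in the 300 bases around each summit, on both strands. CACGTG, the E-box core, occurred in 2 of 14 Hox promoter peaks, at Hoxd11 and Hoxd1, against 18.3% of peaks at other CpG-rich promoters. GCGGGAA, an E2F-type motif, occurred in 2 of 14, at Hoxa5 and Hoxd1, against 13.9%. Among the other cluster peaks CACGTG occurred at the Gm11538 and Hoxc11 intron peaks. A match describes the letters alone. CpG were dense under the Hox summits, with a median of 33 in 300 bases against 30 at other CpG-rich promoters, from 7 at Hoxd10 upward.

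Genes that work with or on the Hox genes were read by the same 1 kb rule. Of 9 genes for homeodomain cofactors of Hox proteins, 3 held a peak, or 33.3% (7.49 to 70.1), namely Pbx3 (score 268), Pbx4 (76) and Meis1 (53). Of 26 regulators found in the annotation 9 held one, or 34.6% (17.2 to 55.7). Both intervals hold the 24.0% of all other genes. Among CpG-rich cofactors the share was 3 of 7, or 42.9%, and among CpG-rich regulators 39.1%, beside 43.6% of other CpG-rich genes. Among the bound regulators were Suz12 (587) and Ezh2 (422), both parts of the Polycomb complex that methylates lysine 27 of histone H3. Eed, another part of that complex, held no peak at a TSS. Of other Polycomb genes, Pcgf2 (48) held a peak and Rnf2, Cbx2 and Bmi1 did not. Also bound were Egr2 (202), which acts on Hox genes in the hindbrain, and Rxra (179), Rara (66), Aldh1a2 (42) and Cyp26b1 (25) of the retinoic acid pathway. No peak lay at the TSSs of Rarb, Rarg, Cyp26a1 or Cyp26c1, which also belong to the retinoic acid pathway. The same was true of Cdx1, Cdx2, Cdx4 and Ctcf. Of 93 homeobox genes outside the clusters 33 held a peak, or 35.5% (25.8 to 46.1), which is close to the Hox share. This interval lies above the 24.0% of all other genes. Among CpG-rich homeobox genes the share was 31 of 73, or 42.5%, beside 43.6% of other CpG-rich genes.

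Next to the clusters 3 of 15 genes held a peak at a TSS, namely Mtx2 (243) and Lnp (92), which flank Hoxd, and Cbx5 (48) beyond Hoxc. This share, 20.0% (4.33 to 48.1), has an interval that holds the 24.0% of all other genes. Among CpG-rich neighbours it was 3 of 9, or 33.3%, beside 43.6% of other CpG-rich genes. Evx2, the homeobox gene beside Hoxd13, had no peak within 1 kb of a TSS but 2 in its coding sequence, at chr2:74494089-74494423 (score 64) and chr2:74495835-74496135 (74). Beyond Hoxa13, an intergenic peak with a score of 38 lay at chr6:52240929-52241598, 30458 bp upstream of the Hoxa13 TSS.

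In KO cells no peak fell in a Hox cluster, 0 of 44 on assembled chromosomes, and none of the WT Hox peaks overlapped a KO peak. The KO peak nearest to a member lay 2.93 Mb from Hoxa2. This count is near the background, since only 0.0947% of the 22186 other protein-coding genes held a KO peak. The WT peaks were drawn from replicates together and the KO peaks from a single sample, as the peak names state, and the lists hold no read counts, so fewer KO peaks and less power to find them cannot be told apart.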

How the data were processed

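KDM5C ChIP-Seq peaks were analysed for WT and KO EpiLCs, grouped by the sample titles. Single-end reads were aligned to mm9 with Bowtie 1.1.2 and peaks were found against input with MACS2 2.1.0.20140616, per the submitters' processing notes. Only uniquely mapped reads were kept, which can remove peaks from repeated sequence. For each peak the authors deposited a score, a fold enrichment over input (a ratio), the −log10 of its p-value and of its q-value, and the summit offset. Fold enrichments were not compared between the lists, which were made separately. The lists hold no read counts. The study states a minimum of reads per sample, and the depth behind each list was not used here. A peak below the authors' limits is not in them. Peaks in WT were found on replicates jointly. The sources differ on the number of KO replicates.

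Peaks on random contigs (17 WT, 3 KO) were left out. Coordinates are mm9, counted from 1, with the NCBIM37 sequence and GENCODE M1 genes, Hoxa3 having 2 gene identifiers there. Distances were taken from peak midpoints. Every member was accounted for, and every cluster peak of a reported gene was named. The members and gene lists were chosen with earlier results of these data known. A gene that the rule takes is not reported here, although its peak stands in the cluster totals. Shares have exact Clopper-Pearson 95% intervals. Peak assignment was tested on simulated data. Alternatives varied the window, the anchor, the CpG limits, the peak threshold and the cluster margin. Python 3.11.15, NumPy 2.4.6, SciPy 1.17.1 and matplotlib 3.10.9 were used.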

Additional observations from a re-analysis of the deposited data

How the results depend on the processing

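Of 91 values under 11 alternatives, 62 stayed within 1.5 times the main count or inside its interval (for the median score, inside the quartiles of the cluster peaks), and 29 moved further. Keeping peaks at or above the WT median score left 5 cluster peaks with a median score of 179 and 0 away from any TSS, and 4 bound Hox genes (10.5%), with 3 in Hoxa, 0 in Hoxc and 1 in Hoxd, beside 24.0% of other CpG-rich, 13.0% of all other and 7.53% of non-Hox homeobox genes. Using only the 5′ end of each gene left 9 bound Hox genes, 2 of them in Hoxa, and 22.1% of all other genes. A 500 bp window gave 40.1% of CpG-rich, 21.8% of all other and 22.6% of homeobox genes, with 4 cluster peaks away from a TSS. A 5 kb window gave 46.3% of CpG-rich and 27.0% of all other genes, with 2 bound genes in Hoxb, 2 in Hoxc and 0 peaks away. The stricter CpG limits gave 48.9% of other CpG-rich genes. A −log10 q of at least 3 gave 40.3% of CpG-rich and 22.1% of all other genes, with 1 peak away, and left 11 Hox genes. A 50 kb margin gave 5 peaks away. Start codons, added after seeing the data, gave 1 bound gene in Hoxb. No paired analysis was possible because there was a single peak list for WT and another for KO. For the same reason no replicate could be left out, and depth could not be varied.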
